A study of Rattus norvegicus with 4 samples.

Results

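The products of miR-374 and miR-421, which are made from neighbouring hairpins inside the gene of the long non-coding RNA Ftx on chromosome X, were followed in chondrocytes and in the matrix vesicles (MVs) that these cells left in their matrix. They were taken by name, as the products of miR-374 and miR-421 in the deposited counts, and this gave 4 products of 2 precursors among 740 mature miRNA names. Products of miR-545, a further miRNA of the Ftx locus, were not analysed here. The group was chosen by the measured vesicle-to-cell ratio, for which rno-miR-374-5p stood out, so that the ratios below are a description and were not tested.

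Small RNA was sequenced from 4 groups with 1 library each: RC-cells and RC-MVs from the resting zone, and GC-cells and GC-MVs from the growth zone of rat costochondral cartilage. All were untreated cultures at passage 4, set up from male Sprague Dawley rats, whose age is not given in the sources used here. MVs were pelleted by ultracentrifugation from the trypsin digest of the cell layer, and the digestion was stopped with buffer that contained fetal bovine serum freed of exosomes. How many animals or cultures fed each library is not given in the sources used here. With 1 library per group, no difference in the sequencing has a replicate check. The study also profiled cells and MVs of both zones with a miRNA PCR array and tested differences in it. The array values were not analysed here.

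A microRNA is cut from a hairpin, whose 5p and 3p arms can each give a mature strand, and bases 2 to 8 of that strand, the seed, pair with target mRNAs. Usually a single arm, the guide strand, is kept in the silencing complex and the other arm is degraded. Ftx lies in the X-inactivation centre, the region that also holds Xist, and in many mammals it is the host transcript of these miRNAs. MVs are the membrane-bound particles of cartilage matrix in which mineral first forms, and the study asked which miRNAs of a chondrocyte they carry.

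The mature sequences are shown because the products differed in their vesicle-to-cell ratio although their hairpins are neighbours. They are RefSeq sequences of the GRCr8 assembly, written 5′ to 3′ with the seed in capitals, and all 4 products were matched.
miR-374-5p: aUAUAAUAcaaccugcuaagug
miR-374-3p: cUUAGCACguuguauuauuauu
miR-421-3p: aUCAACAGacauuaauuggg
miR-421-5p: gGCCUCAUuaaauguuuguug

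The 4 seeds all differ, and no other mature miRNA in the counts with a matched sequence shared bases 2 to 8 with any of them. The seed of miR-374-5p consists of A and U only, which held for 2 of the 481 miRNAs with reads and a matched sequence, the other being miR-126a-5p.

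The hairpins show where both arms lie. They are given 5′ to 3′ on the minus strand of chromosome X in GRCr8, with the mature arms in capitals, whereas the reads were counted on the earlier build Rnor_6.0. Mir374b lies at chrX:72657495-72657562 and Mir421 at chrX:72657339-72657417, with 77 bases between them, and both lie within the span of Ftx. Whether they fall in an exon or an intron was not analysed here.
Mir374b: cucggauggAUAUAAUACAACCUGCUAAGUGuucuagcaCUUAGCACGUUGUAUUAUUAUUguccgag
Mir421: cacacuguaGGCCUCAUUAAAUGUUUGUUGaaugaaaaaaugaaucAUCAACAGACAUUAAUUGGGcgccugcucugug

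The resting zone libraries held 6517329 miRNA reads from cells and 1108821 from MVs, and the growth zone libraries 7414467 and 982543, which makes the depth of the cells 5.88 and 7.55 times that of their vesicles. In RC-MVs 3 reads made up 0.000271% of the library and in GC-MVs 0.000305%, against 4.60e-05% and 4.05e-05% in the cells of the same zones. Of the 6 chondrocyte markers set for this check, miR-140 and miR-455 had reads from both arms in every library, whereas miR-675-5p had 0 reads in all 4 and miR-675-3p had 1 read, in GC-cells. The summed share of these markers ran from 0.526% in RC-cells to 1.00% in RC-MVs, and it was carried by miR-140-3p, with 24948 and 10542 reads. Other markers went the opposite way, as miR-140-5p went from 4626 reads in RC-cells to 94 in RC-MVs, and miR-455-5p from 4089 to 262. Markers of blood cells, of which 7 of 8 were found, summed to 0.00126% and 0.00123% in RC-cells and GC-cells but to 0.0887% and 0.190% in RC-MVs and GC-MVs. The liver and serum miRNA miR-122-5p moved the same way, from 0.000491% and 0.000459% in the cells to 0.401% and 1.14% in the vesicles. The summed share of the 5 muscle markers lay between 0.000368% in RC-cells and 0.00733% in GC-MVs, with miR-208a-3p at 0 in all libraries. When all markers of other tissues were left out of the library totals, which was tried after the data were seen, the ratio of RC-MVs to RC-cells of miR-374-5p was 0.0311 in place of 0.0310 and that of GC-MVs to GC-cells was 0.0653 in place of 0.0644.

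The main product, miR-374-5p, is the strand of the Mir374b hairpin that chondrocytes accumulated. In the resting zone it had 1899 reads in the cells and 10 in the MVs, and in the growth zone 1288 and 11. As a percent of all miRNA reads these were, in the same order, 0.0291% (95% Wilson interval from 0.0279% to 0.0305%), 0.000902% (0.000490% to 0.00166%), 0.0174% (0.0164% to 0.0183%) and 0.00112% (0.000625% to 0.00200%). Both cell libraries were high and both vesicle libraries low. Ordered by reads within a library, it ranked 111 in RC-cells and 126 in GC-cells, but 297 and 275 of the 431 miRNAs with reads in each vesicle library.

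Resting zone vesicles held a 32.3-fold lower share of miR-374-5p than their cells (95% exact interval from 17.5 to 67.5). At the share of the cells, 323 reads would have been found in RC-MVs in place of 10. Growth zone vesicles held a 15.5-fold lower share (8.64 to 31.2), with 171 reads in place of 11. These intervals, and all others below, are at the 95% level and cover counting error only, and a share cannot tell fewer copies of a miRNA from more copies of the others. Among miRNAs with at least 100 reads in the cell library, the ratio of miR-374-5p was the eighth lowest of 262 in the resting zone, and it ranked 11 of 270, counted from the lowest, among growth zone samples. Of the 275 miRNAs that reached 10 reads in GC-cells and GC-MVs alike, it was the lowest, at a log2 ratio of -3.96 where the median was 0.19, whereas of the 293 that did so in the resting zone, miR-411-3p was lower, at -5.48 against -5.01. With 11 reads in GC-MVs it was just above that minimum, which leaves out miRNAs with fewer vesicle reads, among them those with lower ratios in the order of 270.

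**Figure D1:**
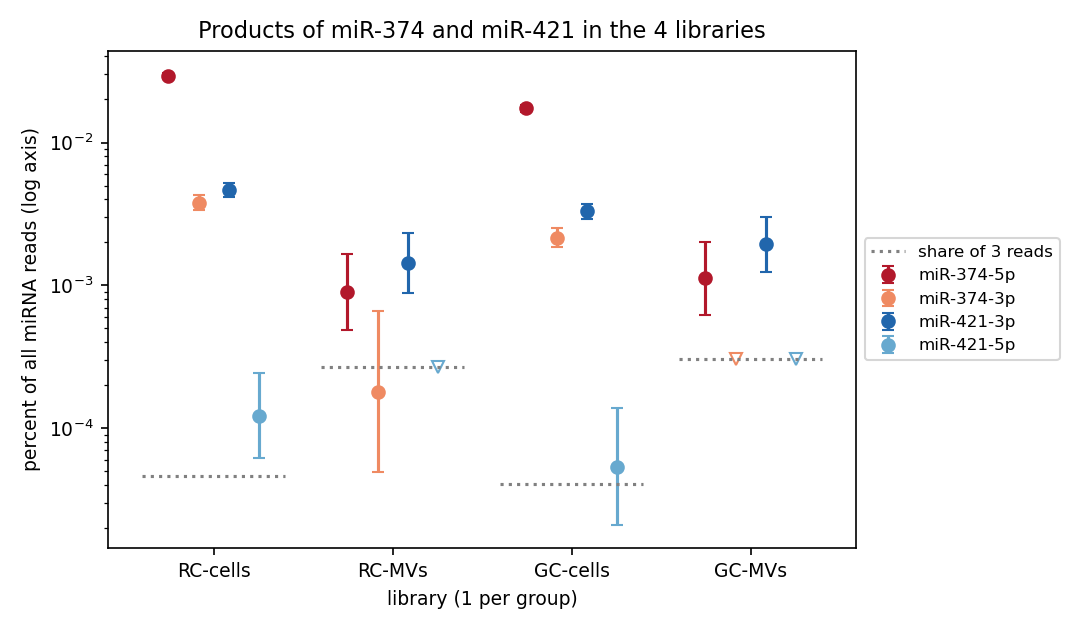
Percent of all miRNA reads (log axis) of the 4 products in the 4 libraries, with 95% Wilson intervals as bars; dotted lines mark the share of 3 reads and open triangles stand for 0 reads. miR-374-5p leads in both cell libraries, at 0.0291% and 0.0174%, and lies below miR-421-3p in both vesicle libraries.

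The opposite arm, miR-374-3p, is the less abundant strand of the same hairpin. Cells of the resting zone had 247 reads of it and their MVs 2, and cells of the growth zone had 160 and their MVs 0. In the resting zone its share was 21.0-fold lower in RC-MVs, with a wide interval from 5.76 to 174 because only 2 reads were counted. In the growth zone it was at least 7.07-fold lower in GC-MVs when the 0 reads were set at 3, and the exact interval for 0 reads begins lower, at 5.68-fold. Both arms of Mir374b were thus high in cells and low in vesicles. There were 7.69 reads of miR-374-5p for each read of miR-374-3p in RC-cells (interval from 6.73 to 8.81) and 8.05 in GC-cells (6.83 to 9.55). In RC-MVs the figure was 5, with an interval from 1.07 to 46.9 that includes the values of both cell libraries, so that a change of arm balance was not detectable at this depth.

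The main product of the Mir421 hairpin was the 3p arm. Resting zone cells had 301 reads of miR-421-3p and their MVs 16, or 0.00462% and 0.00144% of miRNA reads, and growth zone cells had 244 and their MVs 19, or 0.00329% and 0.00193%. From cells to vesicles this was 3.20-fold lower for the resting zone (1.94 to 5.67) and 1.70-fold lower for the growth zone (1.07 to 2.88). Cells were again above vesicles in both zones, but in the growth zone the difference was under 2-fold. With the TMM scaling of edgeR the growth zone ratio was 0.503 in place of 0.588, at the edge of 2-fold. In the order of ratios from the lowest, miR-421-3p ranked 73 of 262 miRNAs with at least 100 reads in RC-cells and 102 of 270 in GC-cells.

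The other arm, miR-421-5p, had 8 reads in RC-cells, 4 in GC-cells and 0 in both vesicle libraries. At the share of the cells, 1.36 reads would have been found in RC-MVs and 0.530 in GC-MVs, so that no difference could be shown at this depth and no fold is given. There were 37.6 reads of the 3p arm for each read of the 5p arm in RC-cells (interval from 18.9 to 88.0), and 244 reads against 4 in GC-cells.

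Of the 4 products, 3 had at least 1 read in both resting zone libraries and all 3 were at least 2-fold lower in RC-MVs, where 30.4% of 414 miRNAs were. With at least 10 reads in both, 2 products remained and both were lower, where 28.3% of 293 miRNAs were. In the growth zone, 2 products had at least 1 read in both libraries, and the same 2 had at least 10. Of these, 1 was at least 2-fold lower in GC-MVs, miR-374-5p, where 25.2% of 417 miRNAs with at least 1 read and 22.2% of 275 with at least 10 reads were. miR-374-3p was not in the growth zone count because it had no read in GC-MVs. The share of miR-421-3p was past 2-fold in the resting zone and not in the growth zone, and its other arm, miR-421-5p, could not be judged in either. Nothing is read from these counts against the background, because the ratios chose the group, and a lower share in vesicles does not by itself show that a miRNA was kept in the cells.

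**Figure D2:**
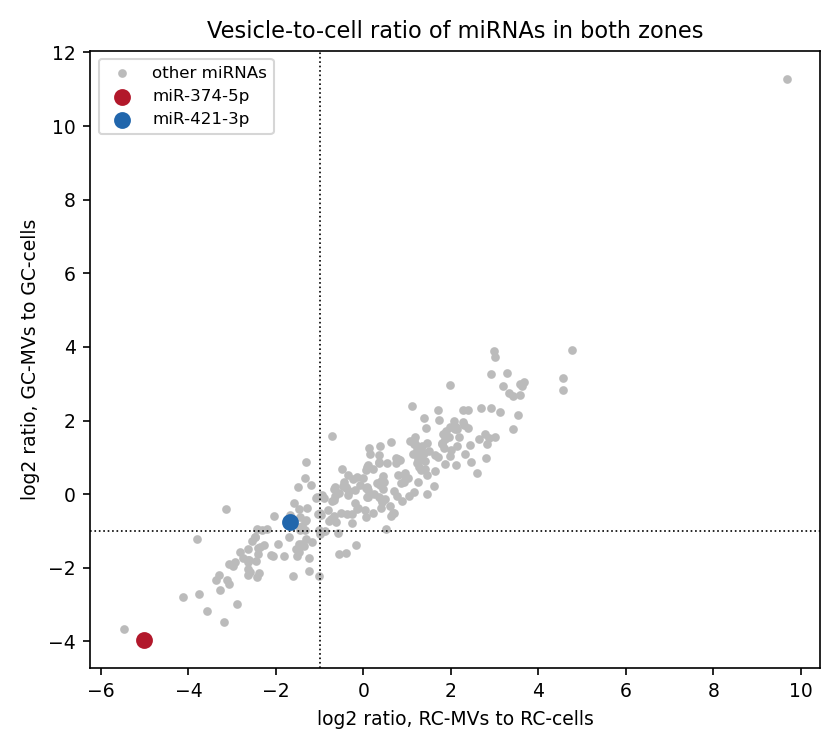
Log2 vesicle-to-cell ratio of the 262 miRNAs with 10 or more reads in each of the 4 libraries, with the resting zone on the x axis and the growth zone on the y axis; dotted lines mark 2-fold lower in vesicles. miR-374-5p lies at -5.01 and -3.96, near the lower left end, and miR-421-3p at -1.68 and -0.77.

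The main products of the neighbouring hairpins differed in their vesicle-to-cell ratio. In RC-cells there were 6.31 reads of miR-374-5p for each read of miR-421-3p (interval from 5.58 to 7.15), and in GC-cells there were 5.28 (4.60 to 6.08). In RC-MVs there were 0.625 (0.254 to 1.46) and in GC-MVs 0.579 (0.249 to 1.28). The order of the main products was thus reversed from cells to vesicles, although neither vesicle interval excluded equal numbers. The cell-to-vesicle fold of miR-374-5p was 10.1 times that of miR-421-3p for the resting zone (interval from 4.25 to 25.1) and 9.12 times for the growth zone (4.06 to 21.4). This comparison divides reads within a library and does not depend on library totals or on the scaling. The same comparison of miR-374-3p with miR-421-3p gave 6.56 times in the resting zone, with an interval from 1.52 to 59.3, and has no finite value in the growth zone, where GC-MVs had no read of miR-374-3p.

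**Figure D3:**
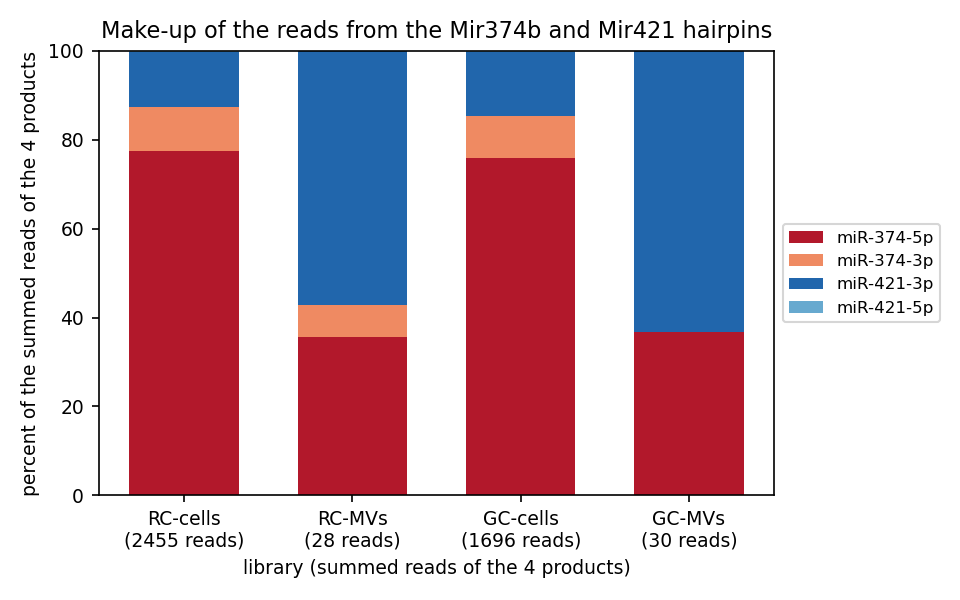
Make-up of the summed reads of the 4 products in each library, as a percent (y axis, from 0) with the number of summed reads under each bar; the 0 to 8 reads of miR-421-5p are too few to be seen. miR-374-5p gives 77.4% of these in RC-cells and 75.9% in GC-cells, against 35.7% in RC-MVs and 36.7% in GC-MVs, where miR-421-3p gives 57.1% and 63.3%.

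Summed over the 4 products, resting zone cells had 2455 reads and their MVs 28, and growth zone cells had 1696 and their MVs 30. The summed share of the vesicles was 14.9-fold lower for the resting zone (10.3 to 22.5) and 7.49-fold lower for the growth zone (5.23 to 11.1). These values rested on miR-374-5p. Without it they were 5.26-fold (3.29 to 8.93) and 2.85-fold (1.80 to 4.78).

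The zones were compared within each kind of sample. In the cells, miR-374-5p was 1.68-fold higher in RC-cells than in GC-cells (1.56 to 1.80), miR-374-3p was 1.76-fold higher (1.43 to 2.16) and miR-421-3p was 1.40-fold higher (1.18 to 1.67). All 3 products with at least 10 reads in both cell libraries were higher in RC-cells and none passed 2-fold, where 13.2% of 379 miRNAs differed by at least 2-fold in either direction. The size of these differences depended on the scaling. TMM factors, the size factors of DESeq2 and totals without the abundant miR-143-3p, miR-22-3p and miR-21-5p moved all log2 ratios of RC-cells to GC-cells by -0.34, -0.36 and -0.32. Under these scalings the ratio was between 1.31 and 1.35 for miR-374-5p, between 1.37 and 1.41 for miR-374-3p and between 1.10 and 1.13 for miR-421-3p. The direction was kept, but the intervals of miR-421-3p then included equal shares, as from 0.936 to 1.32 with TMM factors.

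In the vesicles, the ratio of RC-MVs to GC-MVs was 0.806 for miR-374-5p (0.307 to 2.09) and 0.746 for miR-421-3p (0.359 to 1.53). Both intervals include equal shares, and 0 of these 2 products passed 2-fold where 35.8% of 271 miRNAs did. The cell-to-vesicle fold of miR-374-5p was 2.08 times as large in the resting as in the growth zone, with an interval from 0.800 to 5.49, and that of miR-421-3p was 1.88 times as large (0.894 to 4.00). With all miRNA reads as the total, and with TMM factors or size factors, these intervals included equality. With totals without the 3 abundant miRNAs, those of miR-421-3p did not, at 0.482 for RC-MVs to GC-MVs (0.232 to 0.990), past 2-fold, and 2.34 times for the folds (1.11 to 4.97), whereas those of miR-374-5p still did (0.198 to 1.35 and 0.994 to 6.81). With 10 to 19 reads in each vesicle library, whether the zones differed thus depended on the scaling for miR-421-3p.

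The 4 products all lay above the median miRNA in their content of A and U, which the choice did not use directly. Of the 22 bases of miR-374-5p, 15 are A or U (68.2%). The figure was 72.7% in miR-374-3p, 65% in miR-421-3p and 61.9% in miR-421-5p, while the median of the 481 miRNAs with reads and a matched sequence was 52.2%. An A and U content at least as high as that of miR-374-3p was found in 1.25% of these miRNAs, 4.78% were at or above miR-374-5p, 9.36% at or above miR-421-3p and 17.0% at or above miR-421-5p.

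Where cells and vesicles both had 10 or more reads, a higher A and U content went with a lower vesicle-to-cell ratio, with a Spearman rho of -0.56 over 265 miRNAs for the resting zone and -0.51 over 251 for the growth zone, leaving out 28 and 24 with no matched sequence. A group chosen for low ratios is therefore not independent of its A and U content. These are correlations across miRNAs of the same 2 libraries, given as a description. The A and U content also went with the reads in the cell library, with a rho of 0.32 in RC-cells and 0.29 in GC-cells, and the part of abundance and depth in the relation was not tested. Without the products of miR-374 and miR-421 the values were -0.55 and -0.50. In the class with 60% to 70% A and U, the median log2 ratio was -2.15 over 38 miRNAs for the resting zone and -1.35 over 42 for the growth zone, and 71.1% and 61.9% of these were at least 2-fold lower in vesicles. In the class under 40%, the medians were 1.35 over 40 miRNAs and 1.53 over 38, and 0% and 5.26% were lower.

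The main products took different places among miRNAs of like composition. miR-374-5p had the second lowest ratio of the class from 60% to 70% in the resting zone and the lowest in the growth zone. miR-421-3p, also in this class, ranked 21 of 38 and 28 of 42 from the lowest, so that it lay above the class median in both zones, at -1.68 against -2.15 and at -0.77 against -1.35.

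**Figure D4:**
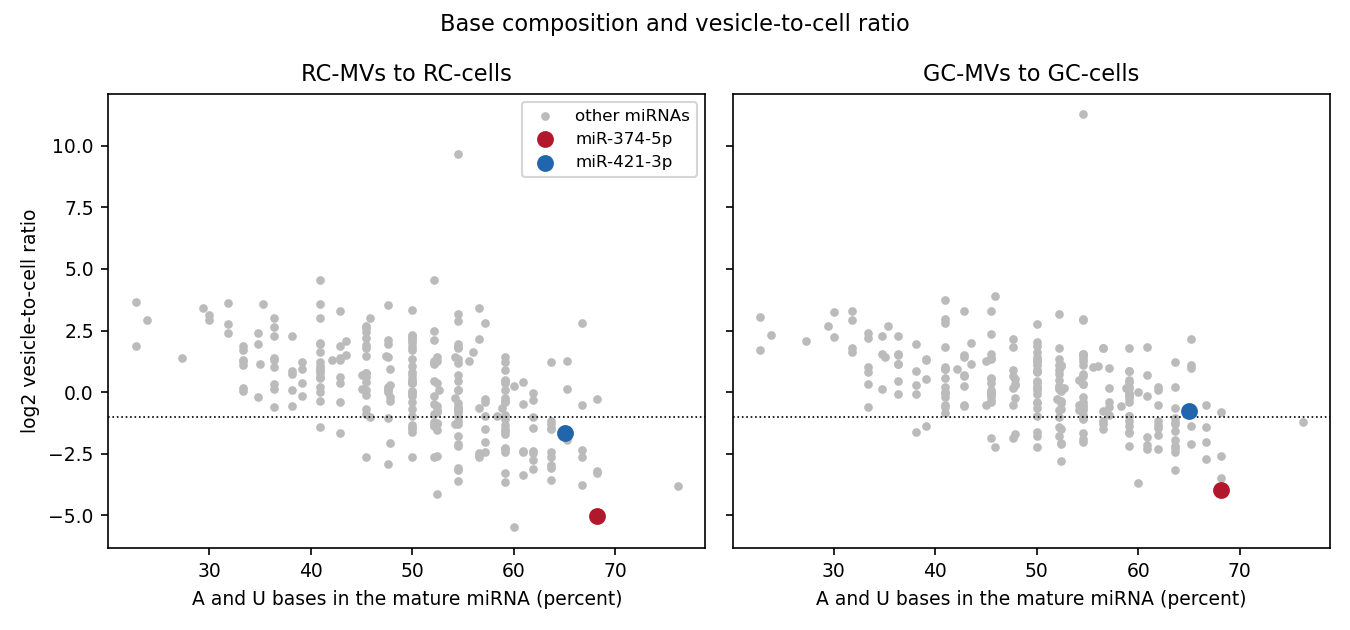
Percent of A and U bases in the mature miRNA (x axis) and log2 vesicle-to-cell ratio (y axis) of miRNAs with 10 or more reads in cells and vesicles, in the resting zone (left, 265 miRNAs) and the growth zone (right, 251 miRNAs); the dotted line marks 2-fold lower in vesicles. miR-374-5p, at 68.2%, lies at the lower edge in both panels, and miR-421-3p, at 65%, lies at -1.68 and -0.77. With 10 and 11 vesicle reads miR-374-5p is at or just above the minimum, and miRNAs with fewer are not shown.

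Other miRNAs of chromosome X ranged from far below to far above equal shares. The RefSeq table placed 107 further products in the counts on this chromosome, of which 62 had reads. Where cells and vesicles both reached 10 reads, 12 of 29 were at least 2-fold lower and 4 at least 2-fold higher in RC-MVs, with a median log2 ratio of -0.47. In the growth zone, 7 of 24 were lower and 2 higher, with a median of -0.36. Over all miRNAs, 83 of 293 were lower and 101 of them higher for the resting zone, with a median of 0.12, and 61 of 275 were lower and 83 higher in the growth zone, with a median of 0.19. The lowest log2 ratios of the chromosome X list were -3.57 for miR-450a-5p in the resting zone and -3.48 for let-7f-5p in the growth zone, both above those of miR-374-5p, while miR-3559-5p of the same chromosome, at 4 reads in RC-MVs and only 8 in GC-MVs, was under the read minimum. The list includes 4 names, let-7f-5p among them, whose counts also hold a copy on another chromosome. Its most abundant members in the cells were let-7f-5p, a guide strand of the let-7 family, which was 9.15-fold lower in RC-MVs and 11.1-fold lower in GC-MVs, and miR-221-3p, whose ratios were 0.724 and 1.16.

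Of the miRNAs in introns of Clcn5, a chloride channel gene on the same chromosome, 0 of 5 with at least 10 reads in both resting zone libraries were at least 2-fold lower in RC-MVs and 2 were higher, with a median log2 ratio of 0.83. In the growth zone it was 0 of 4 lower and 2 higher, with a median of 1.46. The most abundant were miR-532-5p, with 8051 reads in the resting zone cells and 1307 in their MVs, and miR-362-5p, with 333 and 101. Their ratios were 0.954 and 1.78 in the resting zone and 1.19 and 1.89 in the growth zone. The minimum of 10 reads in the vesicles leaves out products that are low there. One of these was miR-532-3p, which had 145 reads in RC-cells against 9 in RC-MVs, or 2.74-fold lower (1.40 to 6.12), and 111 in GC-cells against 5 in GC-MVs, or 2.94-fold lower (1.22 to 9.24). Another, in the growth zone, was miR-362-3p, with 136 reads against 9 and a ratio of 0.499 (0.224 to 0.976).

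In the cluster of miR-322 and miR-503, the rat counterparts of human miR-424 and its neighbours, 3 of 7 products were at least 2-fold lower and 1 was higher in RC-MVs, and 2 of 5 were lower and 0 higher in GC-MVs. The medians were -0.26 and -0.95. Its most abundant members differed in direction in the resting zone, where miR-450a-5p was 11.8-fold lower in RC-MVs and miR-351 had a ratio of 1.43. In the growth zone both were lower in GC-MVs, by 9.03-fold for miR-450a-5p and 1.93-fold for miR-351 (1.59 to 2.37). The read minimum left out miR-503 itself, for which RC-MVs gave 3 reads and GC-MVs 1, with ratios of 0.0487 (0.0100 to 0.143) and 0.0920 (0.00230 to 0.527).

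**Figure D5:**
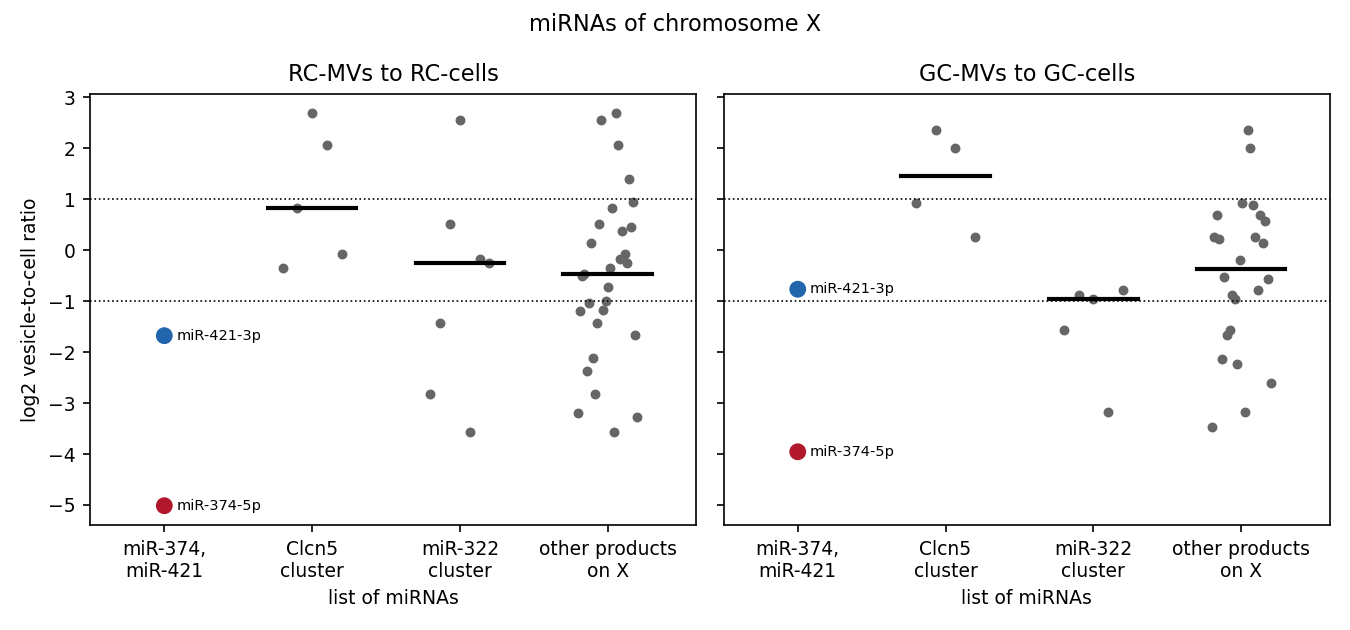
Log2 vesicle-to-cell ratio (y axis) of products with at least 10 reads in both libraries, for miR-374 and miR-421, the Clcn5 cluster, the miR-322 cluster and all other products on chromosome X, in the resting zone (left) and the growth zone (right); bars are medians and dotted lines mark 2-fold. The last list contains both clusters, and miR-374-5p lies below every other product shown, at -5.01 and -3.96.

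The miRNAs most like miR-374-5p across the 4 libraries were found by the distance between log2 percents, with 0.5 reads added to each count and the mean of each miRNA subtracted, among 249 other miRNAs with at least 100 reads in both cell libraries. The nearest was miR-411-3p at a distance of 0.400, where the median was 4.23 and the largest 8.85. Resting zone cells had 3412 reads of it and their MVs 13, and growth zone cells had 1923 and their MVs 20. It was followed by miR-129-2-3p (0.635), miR-1193-3p (0.747), miR-3559-5p (0.948) and miR-411-5p (0.978). Their genes lie on chromosomes 6 (miR-411 and miR-1193), 3 (miR-129-2) and X (miR-3559). Between 3 and 5 reads in RC-MVs and between 3 and 8 in GC-MVs were behind the values of miR-129-2-3p, miR-1193-3p and miR-3559-5p. In the PCR array of the study miR-129-2-3p went the other way, as it was listed as enriched in RC-MVs over RC-cells. The A and U content of the 5 miRNAs ran from 52.4% to 63.6%, below that of miR-374-5p.

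Of the products of its own locus, miR-374-3p lay at a distance of 1.77 from miR-374-5p, the rank of 23 among the 249. Behind this were 2 reads from RC-MVs and none from GC-MVs, and the cell-to-vesicle folds of both arms could not be told apart at this depth, with a ratio of 1.54 for the resting zone (interval from 0.163 to 7.27). miR-421-3p lay at 3.24, the rank of 82.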

How the data were processed

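The authors aligned small RNA reads with Bowtie2 to the rat genome Rnor_6.0, tabulated them with miARma-Seq, and the deposited table holds raw counts of reads for each miRNA locus. Read trimming, tool versions and the handling of reads that fit several loci are not given in the sources used here. The 774 loci were summed to 740 names, and each of the 4 products had 1 locus. As in the study, each count was expressed as a share of the miRNA total in the same library. Shares have Wilson and ratios exact Clopper-Pearson intervals, comparisons within a library conditional exact ones, all at 95%, and PCR copies count as separate reads. Against 0 reads, a fold was set against 3 reads. No test of expression was made with 1 library per group. Calls and coverage of the intervals were checked beforehand on simulated counts with counting error only and at least 10 reads in both libraries. That check does not cover products with fewer reads or variation between cultures.

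Members and lists were chosen with earlier results of these data known. The text names all 4 products, the 2 most abundant of each list in the cells, miRNAs with a member's seed, and the 5 nearest to miR-374-5p; list extremes and products under the read minimum were named after their values were seen. All 452 genes were placed on a chromosome and 659 of 740 names matched to 1 mature sequence in RefSeq tables of GRCr8. Alternatives were other scalings (edgeR's TMM, DESeq2's size factors, reduced totals), added reads, read minimums, thresholds and loci kept apart. Scaling factors came from DESeq2 1.42.0 and edgeR 4.0.16 under R 4.3.3. Intervals came from scipy 1.17.1, tables from pandas 2.3.3 and numpy 2.4.6 and plots from matplotlib 3.10.9, all under Python 3.11.15.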

Additional observations from a re-analysis of the deposited data

How the results depend on the processing

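No paired analysis was possible because each group had 1 library and no result came from a replicated test. Without miR-374-5p, the ratio of the summed products was 0.190 in place of 0.0670 in the resting zone and 0.351 in place of 0.133 in the growth zone. With 0.5 reads added, which lets products with 0 reads be counted, 2 products in place of 1 were at least 2-fold lower in GC-MVs and 4 in place of 3 in RC-MVs, where the product gained was miR-421-5p, with 8 reads against 0. Both summed ratios and the count in GC-MVs were the 3 that moved, and the other 33 values of the summed ratios, the counts and the A and U correlations stayed within their counting interval, within 1.5 times of a count or within 0.1 of a rho. Among values for single products, 57 stayed within their counting interval and 9 moved, all of them ratios of RC-cells to GC-cells under other scalings, and none changed direction. Depth limits the vesicle libraries, where no product had more than 19 reads.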
